A study of Mus musculus with 24 samples.

Results

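The comparison described here set villi of TKO mice, whose E2f1, E2f2 and E2f3 genes had all been deleted, against villi of WT mice. Its members were the 3 arrays titled as TKO villi and the 3 titled as WT villi, 6 of the 24 arrays of the series, and it was read across 18193 genes. Each gene was represented by 1 probe set, the one with the highest mean over the 24 arrays. The study measured total RNA from crypts and villi of mouse small intestine on Affymetrix mouse arrays. Groups used below were TKO villi and crypts (labelled E2f1-/-;E2f2-/-;E2f3-/-), QKO villi (the same with Rb-/-), Rb villi (Rb-/-) and, as the control, WT villi and crypts, with 3 arrays each. All of these mice, WT included, were labelled C57BL/6;FVB, were 2 months old, and had received beta-napthoflavone (the labels' spelling), an agonist of the aryl hydrocarbon receptor, by intraperitoneal injection 7 days before the intestine was taken. The labels name neither a Cre line nor its promoter, do not give which part of each gene was deleted, and do not say whether the arrays of a group came from separate mice, so the p-values measure the spread between arrays, which may be technical.

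E2f1, E2f2 and E2f3 encode the transcription factors known as activator E2Fs, which pair with a DP protein and bind the promoters of genes for DNA replication and cell division. The pocket proteins Rb, p107 and p130 bind E2Fs, and phosphorylation by cyclin-dependent kinases releases them; p107 and p130 also sit, with E2f4 or E2f5, in the DREAM complex, which silences cell cycle genes in resting cells. In the small intestine cells divide in the crypts and leave the cycle before they reach the villus, where absorptive enterocytes, mucus-making goblet cells and a few hormone-making and tuft cells are renewed from below. WT villi therefore show how these genes are set in cells that have mostly stopped dividing.

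Values are log2 expression as the authors deposited them, and a difference of 1 is a 2-fold change. Differences are given with their standard error, as TKO minus WT unless another pair is named, and a gene is said to have changed, risen or fallen where its adjusted p was under 0.05. The 6 arrays had medians of 5.05 to 5.08 over all probe sets. Array-to-array correlation was 0.9881 to 0.9915 among TKO villi, 0.9937 to 0.9947 among WT villi and 0.9779 to 0.9848 between them. The villus label held in both groups: the mean over 14 brush border genes was 12.06, 12.12 and 12.16 in TKO villi and 12.03, 12.21 and 12.19 in WT villi, against a group mean of 11.22 in WT crypts, or 11.18 without WT crypts 3. TKO and WT villi also differed in a technical control and in the sex of the mice. The part of the technical difference in the results was not tested. The poly-A control transcripts, which are added to the RNA before labelling, averaged 9.15, 8.96 and 8.99 over 15 probe sets in TKO villi and 5.53, 5.57 and 6.20 in WT villi. They lay between 8.28 and 10.06 on all 12 TKO and QKO arrays and between 5.01 and 6.25 on all 12 Rb and WT arrays, so that this step of the work cannot be told apart from the loss of E2f1 to E2f3. By the Y-linked gene Eif2s3y, TKO villi 1 came from a female and TKO villi 2 and 3 from males, and all 3 WT villus arrays came from females; counts that move with sex are given beside the lists they touch.

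The targeted genes came first. None of the 7 probe sets of E2f1, E2f2 and E2f3 passed the test as lower in TKO villi, and since the deleted parts are not in the labels, these signals check nothing about the deletion. Of 3 E2f1 probe sets the second by brightness read 6.69, 6.73 and 6.71 in TKO villi and 5.98, 5.90 and 5.44 in WT villi, a difference of 0.94 ± 0.17 (adjusted p over all probe sets = 0.00108). The brightest E2f1 probe set differed by 0.34 ± 0.19 (adjusted p = 0.361), and the dimmest read 5.14, 4.85 and 5.14 in TKO villi and 5.08, 5.09 and 5.32 in WT villi (-0.12 ± 0.14). For E2f2 the difference was 0.36 ± 0.19 and 0.60 ± 0.19, and for E2f3 it was 0.02 ± 0.29 and 0.14 ± 0.21, none past the threshold. Rb1 read 10.38, 10.32 and 10.37 in TKO villi and 10.70, 10.93 and 10.74 in WT villi. The same Rb1 probe set read 8.84, 9.36 and 9.19 in Rb villi. In the crypts it went against 2 labels: the library labelled WT crypts 3 read 8.46, beside 10.31 and 10.59 on the other WT crypt arrays, and the library labelled Rb crypts 2 read 10.25, beside 8.23 and 8.87. Results that rest on crypt arrays are therefore also given without these 2.

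In villi without E2f1 to E2f3, genes of DNA replication, mitosis and ribosome production were higher than in WT villi, while goblet cell products and some detoxification enzymes were lower. Of 18193 genes, 1778 (9.77%) changed; 1129 (6.21%) were higher and 649 (3.57%) lower in TKO villi. When each array was centred on the median of the tested genes, an alternative chosen after seeing the data, this balance turned to 947 higher and 1544 lower. The median difference over all genes was -0.03. Of the changed genes, 530 differed by more than 1, of which 399 were higher and 131 lower. Values of the 3 TKO arrays lay wholly above those of the 3 WT arrays for 2615 genes (14.4%) and wholly below them for 3054 (16.8%). The 245 genes of 14 cell cycle lists had 154 members higher and 1 lower, with a median difference of 0.89. Their mean was 8.02, 8.09 and 7.77 on the TKO villus arrays and 7.17, 7.10 and 7.02 on the WT villus arrays, with no overlap.

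The Mcm genes, whose products form the helicase that opens the double strand ahead of replication, had the largest share of members raised among the 14 cell cycle lists. Of 9 measured, 8 rose and none fell, and the median difference over the 9 was 1.58, against -0.03 over all genes. Mcm5 read 10.31, 10.62 and 9.98 in TKO villi and 8.07, 7.82 and 8.0 in WT villi (2.34 ± 0.17, adjusted p = 2.71e-08). Mcm3 read 9.34, 9.27 and 8.72 in TKO villi against 6.99, 7.03 and 6.32 in WT villi (2.33 ± 0.20, adjusted p = 1.53e-07). For both genes the lowest TKO array stood far above the highest WT array. Mcm2, Mcm4 and Mcm7, further subunits of the same ring, differed by 1.58 ± 0.13, 2.20 ± 0.17 and 1.92 ± 0.14. Mcm6 (1.57 ± 0.24), the Mcm8 subunit used in recombination (1.27 ± 0.18) and the loading factor Mcm10 (0.88 ± 0.17) rose as well, and Mcm9 differed by 0.29 ± 0.23 (adjusted p = 0.545). Because these are bulk samples, more cycling cells and more of these transcripts per cell cannot be told apart.

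Promoters of 5 genes are shown because the E2F family acts through short words in such sequence. They are RefSeq sequences of build GRCm38.p6, 250 bases before to 50 bases after the annotated start, read 5′ to 3′ on the gene's own strand. The words searched on both strands were TTTCCCGC, TTTCGCGC, TTTGCCGC and TTTGGCGC for E2F sites and TTTGAA for the cell cycle homology region (CHR), which the DREAM complex can bind; capitals mark them. Mcm5, Mcm7 and Hells were picked, by smallest p, from risen cell cycle genes whose promoter holds an E2F word. Mcm2 was picked likewise from those with a CHR word, and Muc2 as a gene that fell. The words of the risen genes were thus fixed by this choice and show nothing about risen genes in general. Mcm5 (chr8:75109259-75109558, + strand) holds TTTCGCGC and, overlapping it on the other strand, TTTGGCGC. Mcm7 (chr5:138171834-138172133, - strand, 1 of 2 promoters listed for it) holds TTTCCCGC on the other strand and TTTCGCGC on its own. Hells (chr19:38930740-38931039, + strand) holds TTTCCCGC. Mcm2 (chr6:88898731-88899030, - strand) has no E2F word and 1 CHR word, and Muc2 (chr7:141690090-141690389, + strand) has neither.
Mcm5: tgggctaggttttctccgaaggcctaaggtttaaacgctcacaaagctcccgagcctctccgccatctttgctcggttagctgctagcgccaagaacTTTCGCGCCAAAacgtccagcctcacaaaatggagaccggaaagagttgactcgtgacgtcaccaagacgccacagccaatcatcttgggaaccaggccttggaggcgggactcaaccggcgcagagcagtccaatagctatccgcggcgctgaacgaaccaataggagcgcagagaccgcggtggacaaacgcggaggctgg
Mcm7: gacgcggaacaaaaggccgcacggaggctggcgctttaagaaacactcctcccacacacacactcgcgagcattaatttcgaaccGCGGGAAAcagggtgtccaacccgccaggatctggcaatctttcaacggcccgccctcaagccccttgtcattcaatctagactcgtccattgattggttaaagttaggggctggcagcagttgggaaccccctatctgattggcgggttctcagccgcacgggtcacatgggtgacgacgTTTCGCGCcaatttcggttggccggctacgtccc
Hells: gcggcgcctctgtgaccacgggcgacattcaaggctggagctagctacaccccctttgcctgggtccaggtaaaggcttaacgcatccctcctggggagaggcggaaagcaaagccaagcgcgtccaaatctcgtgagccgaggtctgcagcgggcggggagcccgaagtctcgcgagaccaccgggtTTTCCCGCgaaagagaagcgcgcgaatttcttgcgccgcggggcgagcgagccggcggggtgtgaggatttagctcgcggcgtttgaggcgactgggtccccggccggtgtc
Mcm2: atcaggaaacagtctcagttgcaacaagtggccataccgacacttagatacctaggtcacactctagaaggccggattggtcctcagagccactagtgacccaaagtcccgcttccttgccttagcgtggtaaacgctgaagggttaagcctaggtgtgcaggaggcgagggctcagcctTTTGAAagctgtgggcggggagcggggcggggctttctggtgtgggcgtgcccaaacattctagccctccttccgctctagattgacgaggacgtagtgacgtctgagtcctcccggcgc
Muc2: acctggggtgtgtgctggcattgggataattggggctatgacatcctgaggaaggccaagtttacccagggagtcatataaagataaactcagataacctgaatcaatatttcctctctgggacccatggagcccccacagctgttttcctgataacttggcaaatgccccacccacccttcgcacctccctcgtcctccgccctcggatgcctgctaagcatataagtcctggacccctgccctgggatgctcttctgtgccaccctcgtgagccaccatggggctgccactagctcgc
Among genes with a promoter in the table, an E2F word stood in 9.42% of the 945 that were higher in TKO villi, 2.48% of the 525 that were lower and 3.38% of all 14452 measured. They stood in 23.0% of the 126 cell cycle genes that were higher and in 27.8% of the 72 that did not change; with TTTCGCGC and TTTGGCGC alone the shares were 13.5% and 12.5%. The difference between these shares was not tested. Of the Mcm genes 5 of 8 held one. The CHR word stood in 32.5% of the higher cell cycle genes, 33.3% of those not changed and 13.3% of all. A match describes the letters of this window and is not evidence of binding.

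The other replication lists moved with the Mcm genes. Of 23 genes for licensing and firing of origins, 16 rose and none fell (median 0.74). Gins1, a subunit that joins the Mcm ring to make the active helicase, read 7.92, 7.92 and 7.76 in TKO villi and 5.95, 5.79 and 6.00 in WT villi (1.95 ± 0.15, adjusted p = 5.13e-08). Its partner Gins2 differed by 1.93 ± 0.18, and Dbf4, the activating subunit of the Cdc7 kinase, by 1.44 ± 0.15. The origin recognition subunits were uneven: Orc2 rose by 0.77 ± 0.18, while Orc1, Orc3 and Orc4 differed by -0.09, -0.27 and -0.05 without passing the test. For Orc1 this rests on the probe set chosen, since its other probe set averaged 6.72 in TKO villi and 5.21 in WT villi. Of 26 polymerase and fork genes, 22 rose (median 0.99). Tipin, which with Timeless steadies the fork, read 9.05, 8.88 and 8.57 in TKO villi and 7.07, 7.04 and 6.94 in WT villi (1.81 ± 0.14, adjusted p = 6.54e-08). Pole2, a subunit of the leading-strand polymerase, differed by 1.86 ± 0.17, and the clamp loader subunit Rfc4 by 1.81. Pcna, the sliding clamp itself, moved less: it read 12.01, 12.06 and 11.91 in TKO villi and 11.45, 11.31 and 11.56 in WT villi (0.55 ± 0.17, adjusted p = 0.0494), and it was chosen for mention after its values were seen.

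**Figure D1:**
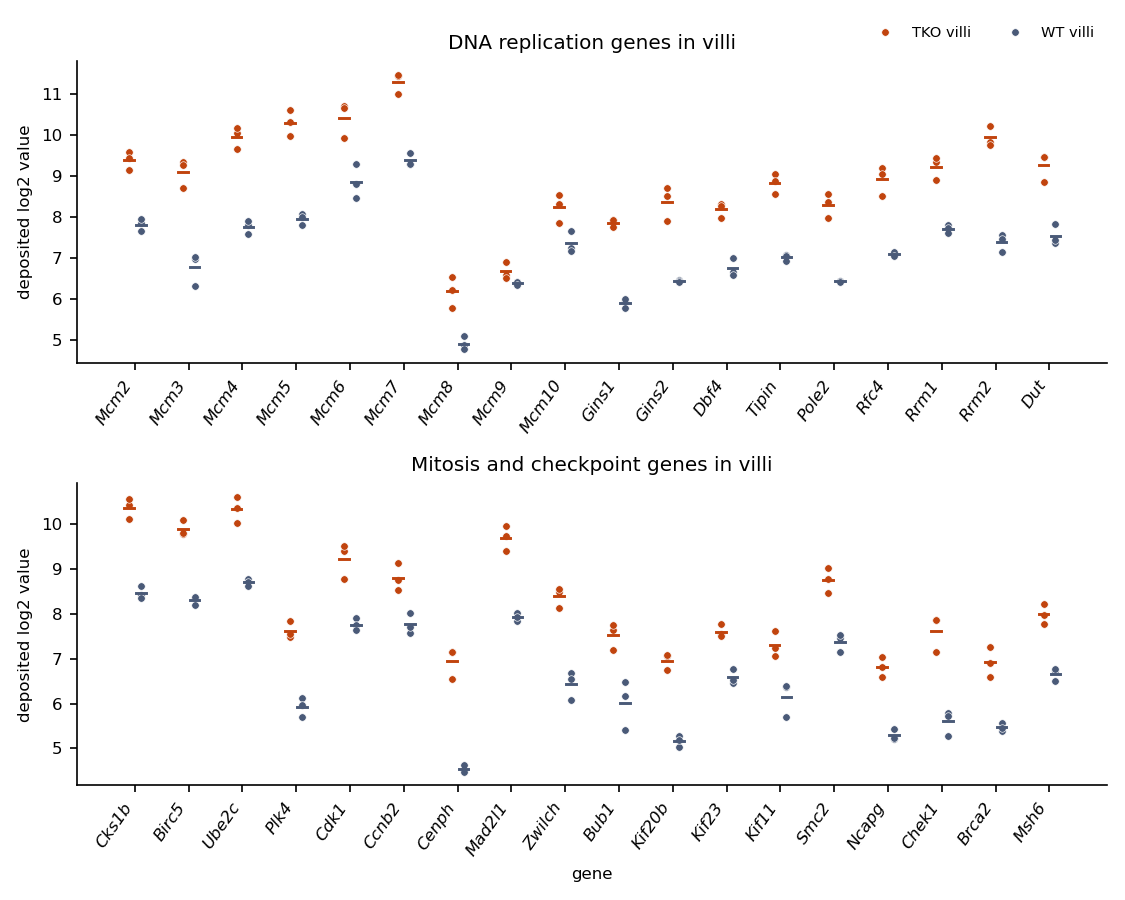
Log2 expression (vertical axis) of replication genes (top) and mitotic and DNA repair genes (bottom) by array; each point is 1 array, short bars are group means, TKO villi (orange) stand left of WT villi (blue). Mcm5 lies at 9.98 to 10.62 in TKO villi and at 7.82 to 8.07 in WT villi.

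Deoxynucleotide supply and new chromatin followed. Of 11 genes for making deoxynucleotides, 9 rose (median 1.09), and all 11 had TKO values wholly above the WT values. Rrm2, the regulatory subunit of ribonucleotide reductase, showed the largest rise of any cell cycle gene: 9.84, 10.23 and 9.77 in TKO villi against 7.56, 7.47 and 7.15 in WT villi (2.55 ± 0.28, adjusted p = 4.68e-06). Its catalytic partner Rrm1 differed by 1.5 ± 0.15, the dUTPase gene Dut by 1.72 ± 0.18 and thymidine kinase Tk1 by 1.55 ± 0.26. Tyms, thymidylate synthase, was dim at 3.93, 3.81 and 3.85 in TKO villi and 3.61, 3.65 and 3.64 in WT villi, and did not pass the test. Of 19 genes for copying chromatin, 14 rose (median 0.94). Hells, a chromatin remodeller needed for DNA methylation, read 9.66, 9.44 and 8.97 in TKO villi and 7.28, 7.22 and 6.87 in WT villi (2.24 ± 0.19, adjusted p = 1.33e-07). Uhrf1, which brings the maintenance methyltransferase to new DNA, differed by 2.17 ± 0.24, and that enzyme, Dnmt1, by 1.31 ± 0.20.

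Mitotic genes rose in the same arrays, though not all of the usual markers did. Of 23 genes for entry into and exit from mitosis, 16 rose and none fell (median 1.27). Cks1b, a small partner of the cyclin-dependent kinases, read 10.43, 10.55 and 10.12 in TKO villi and 8.62, 8.41 and 8.35 in WT villi (1.91 ± 0.21, adjusted p = 4.44e-06). Cdk1, the kinase that starts mitosis, read 9.39, 9.52 and 8.77 in TKO villi against 7.91, 7.74 and 7.63 in WT villi (1.47 ± 0.20, adjusted p = 7.18e-05). Groups did not overlap for either gene, and TKO villi 3 was the lowest TKO array for both. Birc5, Ube2c and Plk4, used in chromosome segregation, cyclin destruction and centriole copying, differed by 1.58 to 1.69. By contrast Mki67, which encodes the Ki-67 proliferation antigen, read 8.69, 9.20 and 8.40 in TKO villi and 8.41, 8.29 and 8.05 in WT villi (0.51 ± 0.29, adjusted p = 0.335). Top2a, the topoisomerase that untangles sister chromosomes, differed by 0.72 ± 0.27 (adjusted p = 0.102). These 2 genes were also chosen after their values were seen. Cdc25b, a phosphatase that switches Cdk1 on, read 6.56, 6.42 and 6.20 in TKO villi and 6.55, 6.43 and 6.65 in WT villi, with the groups overlapping.

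Of 29 spindle checkpoint and kinetochore genes 21 rose (median 1.07), of 17 mitotic kinesin and cytokinesis genes 12 (median 1.10), and of 18 condensin and cohesin genes 7 (median 0.26), with no fall in any of the 3 lists. Cenph, a kinetochore protein, read 7.14, 7.15 and 6.55 in TKO villi and 4.52, 4.49 and 4.63 in WT villi (2.40 ± 0.22, adjusted p = 5.37e-07). Zwilch and Mad2l1, which hold the checkpoint until chromosomes are attached, differed by 1.96 ± 0.21 and 1.77 ± 0.17. The motor gene Kif20b differed by 1.80 ± 0.19, whereas Kif14 did not pass the test (0.03 ± 0.14). Within the last list the members differed: condensin Smc2 (1.39 ± 0.20) and Ncapg (1.52 ± 0.22) and the cohesin regulators Cdca5 (1.79 ± 0.20) and Esco2 (1.65 ± 0.26) rose, while Smc4 (0.30 ± 0.17) and Ncapd3 (0.05) did not pass the test. In the checkpoint and recombination list 20 of 32 rose (median 0.60). The checkpoint kinase Chek1 read 7.86, 7.86 and 7.14 in TKO villi and 5.79, 5.73 and 5.28 in WT villi (2.02 ± 0.22, adjusted p = 3.3e-06). That count is sensitive to single arrays and fell to 12 without WT villi 2 or TKO villi 1 and to 13 without WT villi 3 or TKO villi 2.

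The cell cycle count was also taken with the sex of the mice in view. With sex as a covariate 128 of the 245 cell cycle genes were higher, and with the female TKO villus array alone against the 3 female WT villus arrays 107 were. In the 6 fits that left out 1 array, between 123 and 155 were higher.

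Genes of the pathway's own regulators were counted next. Of 13 E2F, DP and pocket protein genes, 2 rose and none fell (median 0.25). E2f8, an atypical E2F that represses replication genes and is itself an E2F target, read 8.32, 8.46 and 8.01 in TKO villi and 6.81, 6.30 and 6.41 in WT villi (1.75 ± 0.30, adjusted p = 0.000531). Its relative E2f7 did not follow: it read 5.70, 5.70 and 5.66 in TKO villi and 5.99, 5.71 and 5.80 in WT villi (-0.15 ± 0.30, adjusted p = 0.851). The DP gene Tfdp1 rose by 0.65 ± 0.14 (adjusted p = 0.00387). E2f4 and E2f5, which encode repressor E2Fs, differed by 0.25 ± 0.12 and 0.41 ± 0.17, and the pocket protein genes Rbl1 (p107) and Rbl2 (p130) by 0.36 ± 0.19 and -0.43 ± 0.20, none past the threshold. Among 8 genes of the DREAM and MuvB complexes and Foxm1, Lin9 (1.10 ± 0.17) and Mybl2 (0.95 ± 0.20) rose, and Foxm1 differed by -0.18 ± 0.17.

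Of 10 G1 cyclins, kinases and Cdc25a, 5 rose and none fell (median 0.95). Cdk4, the partner of the D cyclins, read 10.21, 10.09 and 9.40 in TKO villi and 8.66, 8.6 and 8.71 in WT villi (1.24 ± 0.20, adjusted p = 0.000331). Cdk2 rose by 0.91 ± 0.19, Ccna2 by 0.99 ± 0.24, Ccnd1 by 1.57 ± 0.40 and Cdk6 by 1.12 ± 0.33, the last 3 losing their call in at least 2 of the alternatives tried. The count of 5 was 2 without TKO villi 2 and 3 without WT villi 2 or WT villi 3. Cyclin E did not move with them: Ccne1 read 6.93, 7.27 and 6.98 in TKO villi and 6.98, 6.20 and 6.45 in WT villi, and Ccne2 differed by -0.10 ± 0.46. Of 7 cyclin-dependent kinase inhibitors, Cdkn2c (p18INK4c, an inhibitor of Cdk4 and Cdk6) fell and no other passed the test. It read 6.18, 6.30 and 6.14 in TKO villi against 7.61, 7.94 and 7.79 in WT villi (-1.57 ± 0.27, adjusted p = 0.000581), and was the only gene of the 245 that fell. Cdkn1a (p21) differed by 0.46 ± 0.29 and Cdkn1b (p27) by -0.06. Of 19 p53 targets and regulators 2 (10.5%) rose, beside 6.21% of all genes, with a median of 0.11. They were the nuclease Aen (1.24 ± 0.24) and Phlda3 (0.92 ± 0.28), whose call was lost in 9 alternatives, and the count was 1 when any of WT villi 1, 2 or 3 or TKO villi 1 or 2, or WT crypts 3 together with Rb crypts 2, was left out. Of 18 Bcl2 family and apoptosis genes 1 (5.56%) rose and 1 (5.56%) fell, beside 6.21% and 3.57% of all genes. Bid rose by 1.09 and Bad fell by 0.56 on the log2 scale, and Bid lost its call without TKO villi 1 or WT villi 3.

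Markers of crypt cells were set beside these lists, since villus preparations can carry crypt tissue; their part in the cell cycle differences was not tested. Of 21 stem cell markers 5 rose (median 0.40), and the list mean was 7.95, 7.93 and 7.36 in TKO villi and 7.31, 7.32 and 7.17 in WT villi, against a group mean of 8.64 in WT crypts (8.75 without WT crypts 3). The 5 were Tert, the telomerase catalytic subunit (2.04 ± 0.29), Cdca7 (1.2 ± 0.22), Aqp4 (1.73 ± 0.45), Olfm4 (0.72 ± 0.20) and the growth factor receptor regulator Lrig1 (0.98 ± 0.30; chosen after its value was seen), and the count fell to 2 without WT villi 3, TKO villi 1 or TKO villi 2. Lgr5, the defining receptor of crypt base stem cells, read 5.09, 5.57 and 4.46 in TKO villi and 5.05, 5.15 and 5.09 in WT villi (-0.06 ± 0.36, adjusted p = 0.959), against 6.8 on average in WT crypts. Smoc2 (0.60 ± 0.33), Ascl2 (0.40 ± 0.29) and the Wnt target Axin2 (0.20 ± 0.31) did not pass the test. Of 11 Paneth and antimicrobial genes none rose and Pla2g2a, annotated as a transcribed pseudogene, fell (median -0.05). Their list mean was 10.92, 11.08 and 9.75 in TKO villi and 10.90, 11.29 and 10.86 in WT villi, against 12.14 in WT crypts (12.11 without WT crypts 3). TKO villi 3 was low for several of them, with Ang4 at 8.44 beside 12.15 and 12.37 on the other TKO arrays, and it was also the lowest TKO array in the cell cycle mean. With TKO villi 3 left out, 155 of the 245 cell cycle genes were higher. This count was not a test of crypt tissue, because TKO villi 1 and 2, which it kept, had stem cell means above every WT villus array.

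Ribosome production rose alongside. Of 38 ribosome biogenesis genes 30 rose and none fell, with a median of 0.96, and for 36 of the 38 the TKO arrays lay wholly above the WT arrays. The count of 30 was 19 without TKO villi 2 and 18 with the female TKO array alone. The nucleolar protein gene Npm1 read 12.20, 12 and 11.64 in TKO villi and 10.71, 10.80 and 10.56 in WT villi (1.26 ± 0.15, adjusted p = 1.99e-05). Ncl, nucleolin, differed by 1.49 ± 0.23, Dkc1, the pseudouridine synthase of small nucleolar RNPs, by 1.52 ± 0.22, and its partner Nhp2 by 1.55 ± 0.23. Myc, which drives many of these genes in other settings, read 8.51, 8.48 and 7.88 in TKO villi and 7.60, 7.66 and 7.28 in WT villi, and the difference of 0.77 ± 0.29 did not pass the test (adjusted p = 0.106), nor did any other of the 9 Myc family genes. Cytosolic ribosomal protein genes moved by less: 24 of 46 rose (median 0.47), among them Rps19 (0.96 ± 0.20). That count ran from 6 without TKO villi 1 to 31 across the fits with 1 array left out. Of 75 mitochondrial ribosomal protein genes 17 rose (median 0.28), a count that was 5 at its lowest with 1 array left out and 7 with sex as a covariate. Of 78 oxidative phosphorylation genes 1 (1.28%) rose and 5 (6.41%) fell, beside 6.21% and 3.57% of all genes (median -0.09). The count of falls was 2 without WT villi 3 or TKO villi 2, 3 without WT villi 1 or TKO villi 1, 2 with sex as a covariate, 0 with the female TKO array alone and 14 with centring on the tested genes.

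**Figure D2:**
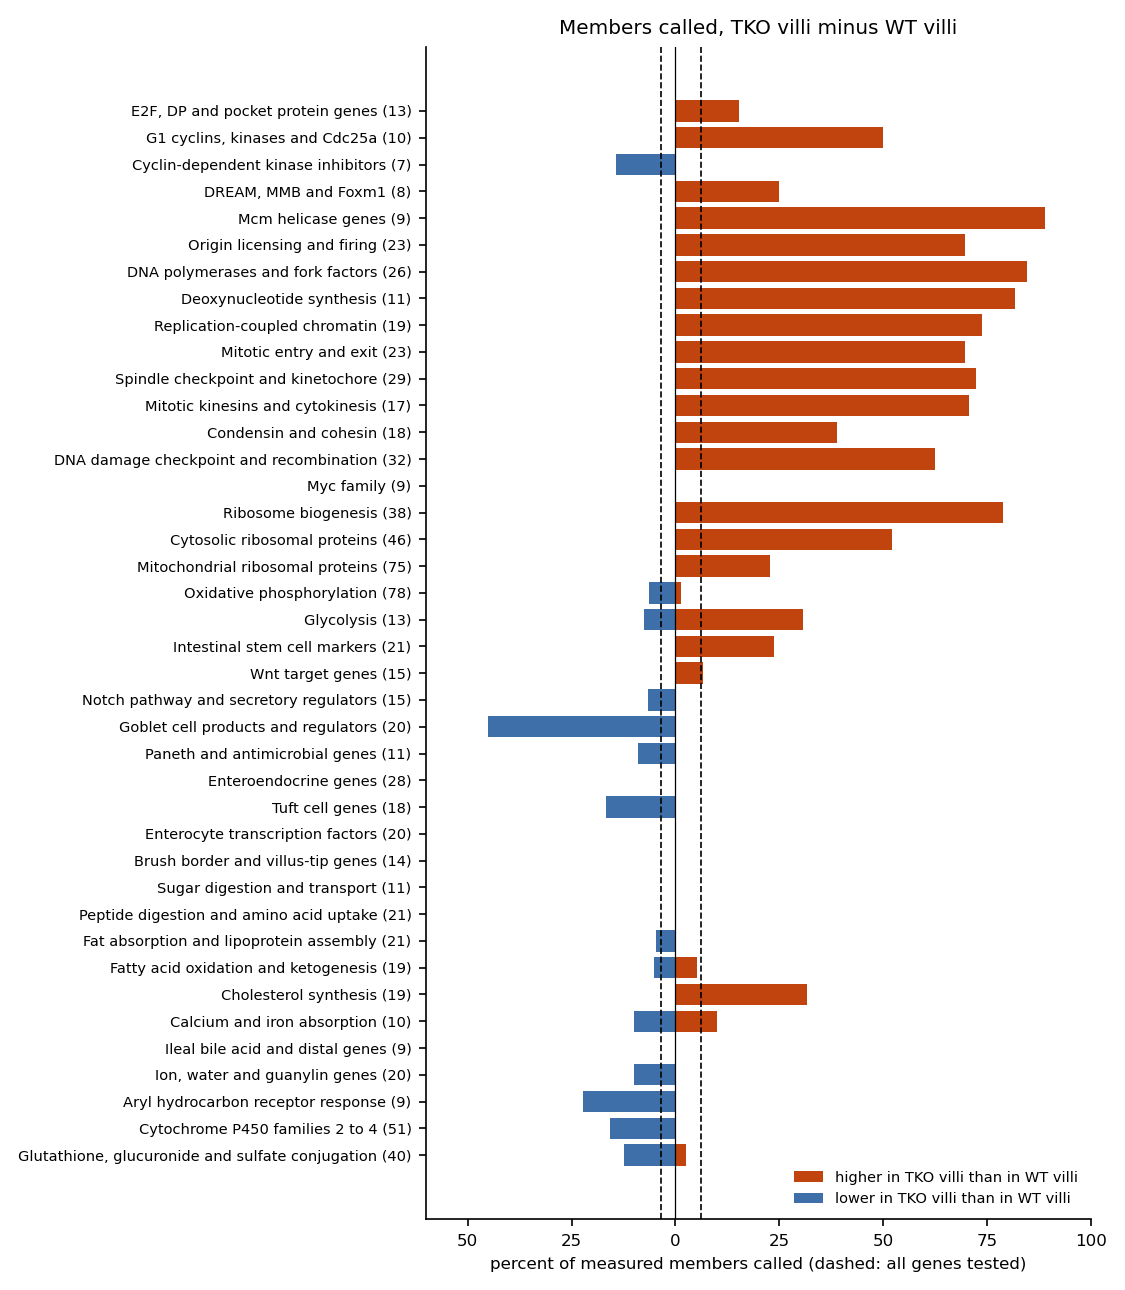
Percent of each list's measured members (n in brackets) that were higher (orange, right) or lower (blue, left) in TKO than in WT villi at an adjusted p under 0.05; dashed lines mark the shares over all 18193 genes, 6.21% higher and 3.57% lower. The Mcm list reaches 88.9% higher, and the goblet list 45.0% lower with 0 members higher.

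Goblet cell genes fell. Of 20 products and regulators of goblet cells 9 fell and none rose, with a median of -0.50, and 13 had TKO values wholly below the WT values. Muc2, the gel-forming mucin of the gut, read 11.57, 12.13 and 11.35 in TKO villi and 13.08, 12.98 and 12.86 in WT villi (-1.29 ± 0.19, adjusted p = 0.000136). The trefoil peptide gene Tff3 read 13.15, 13.03 and 12.82 in TKO villi and 14.17, 14.01 and 14.28 in WT villi (-1.15 ± 0.15, adjusted p = 3.17e-05). Fcgbp, a mucus network protein, differed by -1.49 ± 0.22 and Clca1, which processes mucus, by -1.2 ± 0.34. All 3 TKO arrays were below all 3 WT arrays for each of these 4 genes. Atoh1, the transcription factor that sets the secretory fate, read 6.99, 7.40 and 6.70 in TKO villi and 7.89, 8.06 and 8.04 in WT villi (-0.97 ± 0.17, adjusted p = 0.000731), the only member of the 15 Notch and secretory regulators that changed. Sytl2, a secretory vesicle protein, fell by 1.06 on the log2 scale. Some goblet genes, chosen after their values were seen, did not pass the test: Agr2, which folds mucin, differed by -0.40 ± 0.25, Spdef by -0.34 ± 0.20 and Spink4 by 0.10 ± 0.27. Retnlb, another goblet product, read 4.08, 12.01 and 9.92 in TKO villi and 3.98, 3.87 and 3.88 in WT villi (adjusted p = 0.063). It was high on both male TKO arrays and at the WT level on the female one. It averaged 4.05 in Rb villi, where arrays 1 and 3 came from males, and 3.72 in QKO villi, all from males. In TKO crypts, where arrays 2 and 3 came from males, it averaged 9.39. The part of sex in the Retnlb values was not tested. With sex as a covariate 7 goblet genes were lower, and with the female TKO array alone 5.

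Among other secretory lineages, hormone-cell genes did not share this fall, while some tuft cell genes did. None of 28 hormone-cell genes changed (median -0.14); the granule genes Chga and Chgb differed by -0.18 and -0.13. Of 18 tuft cell genes 3 (16.7%) fell and none rose, beside 3.57% and 6.21% of all genes (median -0.31). TKO values lay wholly below the WT values for 8 of the 18 and wholly above for 1, beside 16.8% and 14.4% of all genes. Alox5ap fell by 1.53, Ltc4s by 1.45 and Rgs13 by 1.70 on the log2 scale. The first 2 of these take part in leukotriene synthesis. The tuft marker Dclk1 differed by -0.75 ± 0.28 (adjusted p = 0.0982), and with sex as a covariate none of the 18 changed.

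Few genes of the absorptive programme passed the test. None of 20 enterocyte transcription factors, 14 brush border genes, 11 sugar digestion genes or 21 peptide digestion genes changed, with medians of -0.03, -0.03, -0.12 and -0.30. TKO values lay wholly below the WT values for 10 of the 21 peptide digestion genes and wholly above for 0. For 21 fat absorption genes these counts were 8 and 2, beside 16.8% below and 14.4% above over all genes. They were 2 and 1 for the transcription factors, 3 and 0 for brush border genes and 2 and 0 for sugar digestion genes. Alpi, intestinal alkaline phosphatase, read 13.88, 13.61 and 13.76 in TKO villi and 13.58, 13.82 and 13.70 in WT villi, with the groups overlapping. Vil1 (villin) differed by -0.05 ± 0.13, Lct (lactase) by -0.43 ± 0.18 and the glucose transporter Slc5a1 by 0.12 ± 0.22. The identity factors Cdx2 and Hnf4a differed by -0.01 ± 0.11 and -0.20 ± 0.10. Of 21 fat absorption genes only the cholesterol transporter Npc1l1 changed; it read 11.50, 12.08 and 11.66 in TKO villi and 12.79, 12.67 and 12.38 in WT villi (-0.87 ± 0.21, adjusted p = 0.00865).

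**Figure D3:**
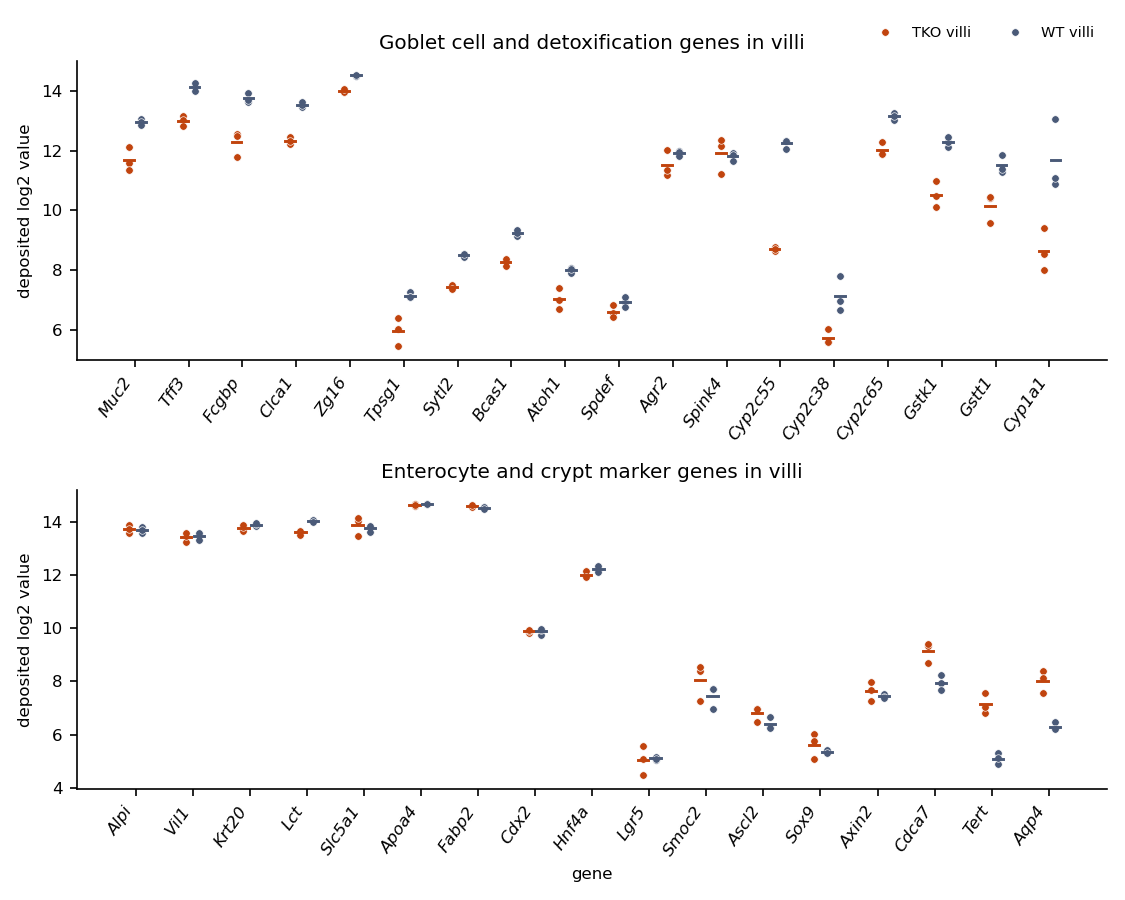
Log2 expression (vertical axis) of goblet and detoxification genes (top) and of villus and crypt markers (bottom) by array; each point is 1 array, short bars are group means, TKO villi (orange) stand left of WT villi (blue), and some genes were added after their values were seen. Muc2 lies at 11.35 to 12.13 in TKO villi and at 12.86 to 13.08 in WT villi, while the 2 groups overlap for Alpi and Lgr5.

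Detoxification genes were lower in part. Cytochrome P450 enzymes of families 2 to 4 had 8 of 51 members lower and none higher (median -0.25). Cyp2c55 read 8.63, 8.78 and 8.69 in TKO villi and 12.33, 12.06 and 12.34 in WT villi (-3.54 ± 0.37, adjusted p = 2.8e-06), about 11.7-fold lower, and the arrays of each group lay close together. Cyp2c38, Cyp2c65 and Cyp2b10 differed by -1.43 ± 0.26, -1.13 ± 0.25 and -0.98 ± 0.30. Of 40 conjugation enzymes 5 fell and 1 rose (median -0.27). Among those that fell, the glutathione transferase Gstk1 read 10.49, 10.11 and 10.99 in TKO villi and 12.12, 12.29 and 12.45 in WT villi (-1.76 ± 0.29, adjusted p = 0.000505). With sex as a covariate the 8 and the 5 became 2 and 2. The injected compound acts through the aryl hydrocarbon receptor. Of 9 genes of that response 2 (22.2%) fell, beside 3.57% of all genes (median -0.73). Cyp1a1, its classic target, read 8.52, 9.41 and 7.99 in TKO villi and 13.08, 10.87 and 11.09 in WT villi (-3.04 ± 0.96, adjusted p = 0.0476), a call lost in 12 alternatives. The receptor gene Ahr fell by 0.83 on the log2 scale, Nqo1 differed by -0.04 ± 0.26, and with any 1 of the 6 arrays left out 1 of the 9 genes was lower.

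The largest single changes lay mostly outside these lists. Gt(ROSA)26Sor, the non-coding transcript of the ROSA26 locus into which transgenes are commonly placed, read 8.28, 8.18 and 8.61 in TKO villi and 2.84, 2.91 and 3.32 in WT villi (adjusted p = 0.000716). The WT values lie near the lowest of the whole table, 2.29, so the size of the difference is uncertain. The labels name no allele at that locus. It also read 4.36, 4.84 and 8.50 in Rb villi and 8.09, 3.04 and 3.81 in Rb crypts, so it was high on some Rb arrays and on all TKO arrays. Rbp7, a retinol-binding protein gene, read 8.12, 8.28 and 8.24 in TKO villi and 4.43, 4.67 and 4.52 in WT villi (3.67 ± 0.31, adjusted p = 1.44e-07), about 12.7-fold higher. It averaged 8.91 in TKO crypts and 4.65 in WT crypts. Other large rises were Mt2 (3.21 ± 0.81) and Mt1 (2.47 ± 0.47), which encode metal-binding metallothioneins, the fatty acid desaturase Scd2 (3.18 ± 0.56), Amph (2.82 ± 0.34), the lectin Mbl2 (2.68 ± 0.49), the steroid receptor co-chaperone Fkbp5 (2.51 ± 0.32), the ribonuclease Ang (2.46 ± 0.37), Car8 (2.40 ± 0.36) and Fignl1, a recombination ATPase (2.35 ± 0.18). Mt2 lost its call without TKO villi 1 or WT villi 3 and with sex as a covariate. For Ang 1 of its 3 probe sets did not share the rise, averaging 6.93 in TKO villi and 6.91 in WT villi.

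Ear3, an eosinophil-associated ribonuclease, showed the largest fall, with 3.26, 3.37 and 3.16 in TKO villi and 8.87, 9.05 and 8.59 in WT villi (-5.57 ± 0.29, adjusted p = 1.44e-10). Its probe set belongs to a family of near-identical genes, so the member that was measured is uncertain, and its TKO values lie near the lowest of the table, so the size of the fall is uncertain. Pla2g2a, a secreted phospholipase of Paneth cells, read 8.36, 8.85 and 6.48 in TKO villi and 12.20, 13.36 and 12.64 in WT villi (-4.84 ± 0.44, adjusted p = 4.12e-07). The RefSeq annotation lists Pla2g2a as a transcribed pseudogene. Further falls were Elobl (-3.43 ± 0.38), the tubulin-binding Tppp (-2.76 ± 0.31), the amino acid transporter Slc6a20b (-2.47 ± 0.33) and Plscr2 (-2.31 ± 0.22). Elobl, Tppp and Plscr2 in TKO villi, and Amph in WT villi, also read near the low end of the scale, which leaves the sizes of their differences uncertain. Ces1g and Ces2a, carboxylesterases, Cyp2c29, the chemokine Ccl24, the water channel Aqp8, the deiodinase Dio1 and the proton channel Otop3 fell by 2.17 to 2.97 on the log2 scale, and each of these 7 lost its call in at least 1 alternative.

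Pla2g2a lies on chromosome 4, 41 measured genes from E2f2, and mice of a mixed background can differ in alleles near a targeted gene. The labels do not give these alleles, and their part in the result was not tested. Of the 100 measured genes nearest to E2f2, 20.0% changed (9 higher, 11 lower), beside 9.77% of all genes; the shares were 6.0% around E2f1 on chromosome 2 and 9.0% around E2f3 on chromosome 13. Camk2n1 (-1.59 ± 0.22), Ece1 (-0.82 ± 0.12), Micos10 (-0.78 ± 0.10) and Pigv (-0.64 ± 0.12) were the other neighbours of E2f2 with the smallest p. Directly beside E2f3, Mboat1, a lysophospholipid acyltransferase, read 7.79, 8.0 and 7.08 in TKO villi and 5.97, 5.86 and 6.19 in WT villi (1.62 ± 0.27, adjusted p = 0.000401).

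Rb villi offered a second genotype in which cell cycle genes stand above the WT level, and TKO villi were set against them. Of 18193 genes 1977 (10.9%) differed, 774 (4.25%) higher and 1203 (6.61%) lower in TKO villi. Of the 245 cell cycle genes 4 were higher and 109 lower in TKO than in Rb villi (median -0.51, against 0.05 over all genes); their mean was 7.96 in TKO villi, 8.53 in Rb villi and 7.10 in WT villi. The 2 comparisons share the TKO villus arrays and are given side by side. Most Mcm genes did not differ: Mcm6 alone of 9 was lower in TKO villi (-1.37), and Mcm5 and Hells differed from Rb villi by -0.22 and -0.16. E2f7 was lower than in Rb villi (-3.26), where it read 9.12, 8.76 and 8.95. Ccne1 (-2.12) and Ccne2 (-2.81), Cdc25b (-2.10), Mki67 (-2.39) and Top2a (-1.64) were lower as well. Each of these 6 genes had also failed to rise over WT villi, but other genes that were lower than in Rb villi had risen. Rrm2 rose by 2.55 over WT villi and was lower than in Rb villi (-1.27, adjusted p = 0.00551). Of 19 genes for copying chromatin, 14 rose over WT villi and 13 were lower than in Rb villi. Cdkn2c showed the largest gap of the 245, at 6.18, 6.30 and 6.14 in TKO villi and 10.65, 10.35 and 10.34 in Rb villi (-4.24, adjusted p = 3.9e-09). Cenph went the other way and was higher in TKO than in Rb villi by 0.87, as were Gins2 (0.69), Timeless and Cdk6. Ribosome biogenesis genes had 3 of 38 members higher and none lower, and goblet genes 14 of 20 lower (median -0.81). The goblet count was 9 without Rb villi 2, TKO villi 1 or TKO villi 3, and the ribosome count was 1 without Rb villi 1 or TKO villi 2 and 2 without Rb villi 3 or TKO villi 1, and 9 with the replicate number as a fixed block.

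**Figure D4:**
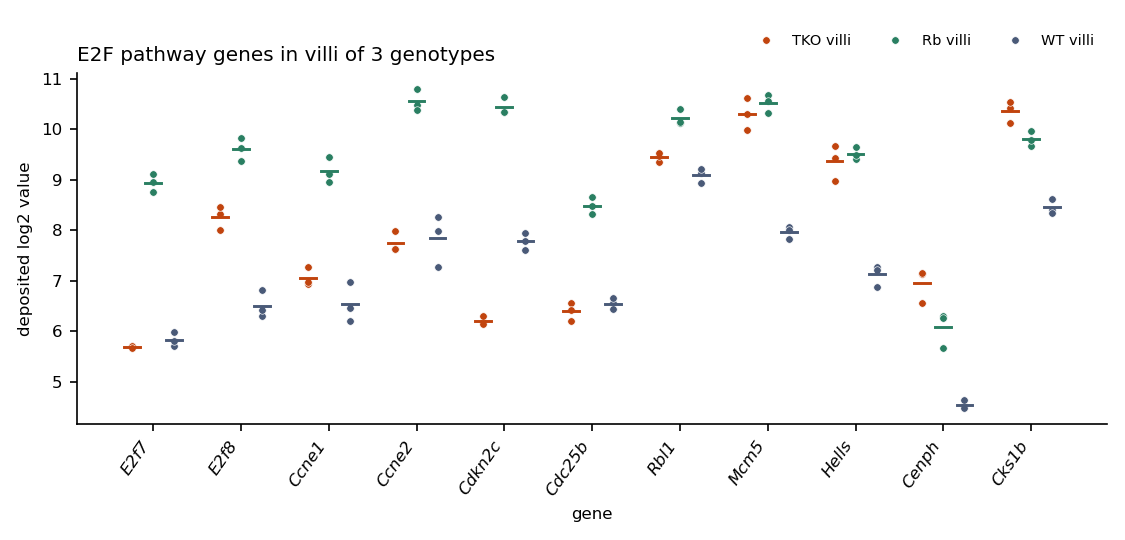
Log2 expression (vertical axis) of E2f7, E2f8, cyclin E genes, Cdkn2c, Cdc25b, Rbl1, Mcm5, Hells, Cenph and Cks1b in villi; each point is 1 array, short bars are group means, with TKO (orange) left of Rb and WT. Cdkn2c lies at 6.14 to 6.30 in TKO villi, 10.34 to 10.65 in Rb villi and 7.61 to 7.94 in WT villi.

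Whether E2f1 to E2f3 loss acted differently in villi than in crypts was tested by the difference of the 2 differences. It was past the threshold for 624 genes (3.43%), 490 (2.69%) with the villus difference above the crypt difference and 134 (0.737%) with it below. Of the 245 cell cycle genes 123 were in the first set and none in the second (median 1.05, against -0.05 over all genes). Their mean was 7.96 in TKO villi and 7.10 in WT villi, and 8.55 in TKO crypts and 8.67 in WT crypts (8.57 without WT crypts 3). Without the 2 crypt libraries that went against their Rb1 labels the test passed for 497 genes, and of the cell cycle genes 106 were in the first set and none in the second, and with 1 array left out at a time between 79 (without TKO villi 2) and 134. Mcm5 had a villus-minus-crypt difference of 1.83, or 1.76 without those libraries, and Rrm2 1.98, or 1.63. For Cdkn2c, which averaged 6.03 in TKO crypts and 9.56 in WT crypts, the value was positive, 1.96, because its fall was larger in crypts; it was 1.60 without them. Ribosome biogenesis had 11 of 38 members in the first set, or 15, and goblet genes none of 20 in either set. The ribosome count depended on single arrays: it was 4 without TKO crypts 1, 5 without WT villi 3 or TKO villi 2, and 7 without WT crypts 1 or 2, WT villi 2, TKO villi 1 or TKO crypts 3. Same-numbered TKO villus and crypt arrays deviated together (correlations 0.61, 0.55 and 0.64); with genotype and number as a random block the test passed for 858 genes, 133 of them cell cycle genes in the first set. At the ends of the test stood Nt5e (3.38), whose means were 10.61 in TKO villi, 10.11 in WT villi, 5.32 in TKO crypts and 8.21 in WT crypts, and Elobl (-2.41); without those libraries they were 3.46 and -1.82.

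**Figure D5:**
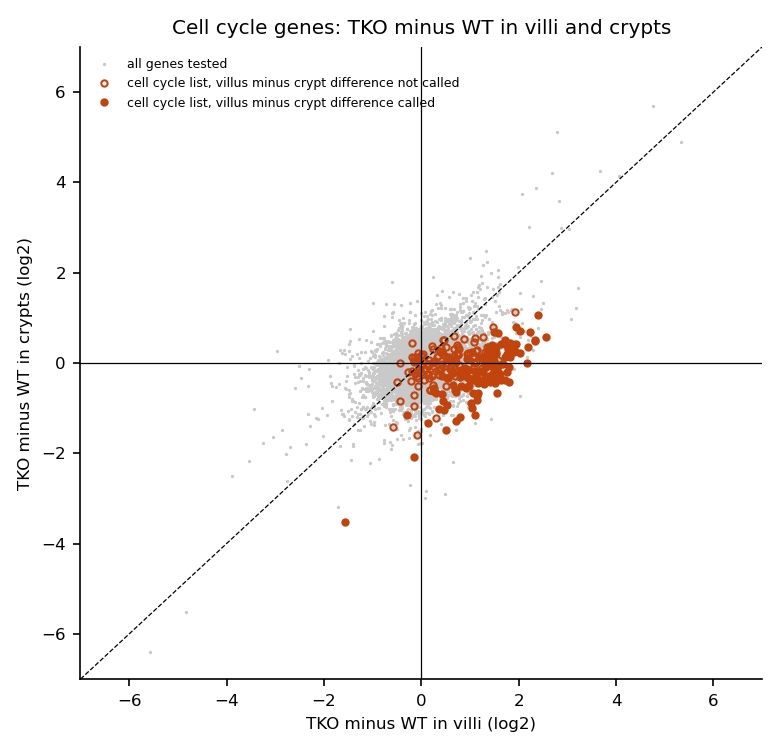
TKO minus WT difference in villi (horizontal axis, log2) against that in crypts (vertical axis, log2), 1 point per gene; grey points are all genes tested, circles are cell cycle genes, filled where the villus-minus-crypt difference passed the test, and the dashed line marks equal differences. Of the 245 circles 123 are filled on the side where the villus difference is larger, and Rrm2 lies farthest right at 2.55.

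TKO villi were also set against WT crypts, to place the raised levels beside those of dividing tissue. Here 4457 genes (24.5%) differed (3904 without the 2 doubtful crypt libraries), 1857 (10.2%) higher and 2600 (14.3%) lower in TKO villi. Of the 245 cell cycle genes 2 were higher and 146 lower (median -0.66), or 3 and 114 without those libraries. The TKO villus mean lay above the WT villus mean and below the WT crypt mean for 203 of them. Without WT crypts 3 it lay between these means, in either direction, for 204. The second count uses a wider rule, so the 2 counts cannot be compared. Of the Mcm genes 3 of 9 were lower in TKO villi, or 2 without those libraries; Mcm2, Mcm3 and Mcm4 differed by -0.12, -0.41 and -0.44, or -0.12, -0.25 and -0.30, and did not pass the test. Brush border genes were on the villus side, with 10 of 14 higher in TKO villi, as were sugar digestion genes with 11 of 11. Without those libraries these were 8 of 14 and 10 of 11, and with sex as a covariate 5 and 7. The brush border count was 5 without WT crypts 2, TKO villi 2 or TKO villi 3, and the sugar digestion count was 6 without WT crypts 2. Stem cell markers had 11 of 21 lower in TKO villi, or 13, and 7 without WT crypts 2 or TKO villi 3. Goblet genes had 17 of 20 lower, or 15.

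The last comparison asked whether loss of E2f1 to E2f3 had the same effect where Rb was also gone. The QKO minus Rb difference in villi differed from the TKO minus WT difference for 2808 genes (15.4%), 1621 (8.91%) above and 1187 (6.52%) below. Of the 245 cell cycle genes 193 were below and none above (median -1.81, against 0.12 over all genes). Their mean was 7.71 in QKO villi and 8.53 in Rb villi, and 7.96 in TKO villi and 7.10 in WT villi, so the QKO mean was lower than its Rb control while the TKO mean was higher than its WT control. All but 1 of the 9 Mcm genes were below (median -2.58). For Rrm2 the value was -4.29, with means of 9.48 in QKO villi and 11.2 in Rb villi, and 9.95 in TKO villi and 7.39 in WT villi. Hormone-cell genes ran the other way, with 20 of 28 above (median 2.39), among them Tph1, the enzyme of serotonin synthesis (4.64), which averaged 10.19 in QKO villi and 6.21 in Rb villi. With 1 of the 12 arrays left out the count was 19 to 21. Genes of other cells moved the same way in this comparison: 5 of 14 fibroblast and collagen genes (median 1.82), 4 of 19 T cell genes (1.11) and 4 of 15 macrophage and dendritic cell genes (0.87) were above and none below. QKO villi 3 also had a higher array median, 5.26, than QKO villi 1 and 2, 5.07 and 5.05. The part of either in the result was not tested.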

How the data were processed

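Crypt and villus RNA of mouse small intestine was hybridised to Affymetrix mouse arrays, 24 in all and 3 per group, from biotin-labelled cRNA made from 3 ug of total RNA, per the labels' protocols. The deposited series table holds log2 expression values per probe set (45101 probe sets, range 2.29 to 14.9, median 5.05); the authors' steps before this, summarisation and normalization, are not stated in any source at hand, and the values were used as deposited. The log2 scale was judged from the values. Array number, not read depth, limits precision here.

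Probe sets with 1 gene in the platform annotation (34945; 932 name several genes, 9160 none, 64 are controls) were joined to current symbols, with 34741 updated by gene identifier and 204 kept. The brightest probe set per gene over the 24 arrays left 18193 genes. limma 3.58.1 (R 4.3.3) fitted 1 mean per group over all 24 arrays with an intensity trend (16 residual and 4.86 prior degrees of freedom), and p-values were adjusted by Benjamini-Hochberg over all genes. All adjusted p-values are two-sided and from limma. On data simulated for the TKO and WT villus comparison, with 67, 67 and 66 of 18193 genes changed by 0.5, 1 and 2, the fit called 28.4%, 85.1% and 98.5% of them, and 0.0611% of unchanged genes. Named genes were the 15 largest rises and falls, up to 4 called members of each list in each direction, all members of short lists or the first 4 of longer ones, and the top 3 each way of the other comparisons. The members and lists were chosen with earlier results of these data known. Same-numbered TKO and WT villus arrays did not deviate together (correlations -0.12, -0.04 and 0.02), nor did WT villus and crypt arrays (0.01, 0.13 and 0.0), while TKO villus and crypt arrays did (0.61, 0.55 and 0.64) and matched in sex by number; the pairing comes from the values, not the labels. Promoters were RefSeq sequences of GRCm38.p6, found for 14452 measured genes. Tables and figures used Python 3.11.15, pandas 2.3.3 and matplotlib 3.10.9. Alternatives covered scaling, centring, probe choice, the dim filter, the trend, array weights, sex, replicate blocks and left-out arrays.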

Additional observations from a re-analysis of the deposited data

Results flagged for a closer look

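The TKO minus WT difference itself differed between villi and crypts for 624 genes, tested as the difference of the 2 differences in limma. It was above the crypt difference for Nt5e (3.38), Pnliprp2 (2.86) and Clca3b (2.76) and below it for Elobl (-2.41), Plscr2 (-2.18) and Slc6a20b (-2.13). Without the libraries labelled WT crypts 3 and Rb crypts 2 the values were 3.46, 2.88 and 3.04, and -1.82, -2.27 and -2.19, and all 6 genes kept an adjusted p under 0.05. The QKO minus Rb difference in villi differed from the TKO minus WT difference for 2808 genes. It was above for Serpina1c (5.33), Ambp (5.0) and Tph1 (4.64) and below for St3gal4 (-10.49), Gsdmc2 (-5.44) and Rrm2 (-4.29). St3gal4 read 12.50, 5.78 and 12.57 in WT villi, so 1 WT array stood far from the other two. The poly-A control probe sets, which no comparison uses, averaged 9.15, 8.96 and 8.99 in TKO villi, above every WT array of the series.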

How the results depend on the processing

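Of 18193 genes, 1778 changed between TKO and WT villi in limma; the count was 1167 with sex as a covariate, 682 with the female TKO villus array alone and 3280 with array weights. Array weights gave 3758 genes against Rb villi (1977 without them) and 1611 for the villus-minus-crypt difference (624). With 1 array left out, the counts ran from 1024 (without TKO villi 2) to 1712 for TKO against WT villi, 1195 (without Rb villi 3) to 1404 for TKO against Rb villi, 268 (without TKO crypts 1) to 821 for the villus-minus-crypt difference, 2776 (without TKO villi 3) to 3809 for TKO villi against WT crypts, and 2041 to 3410 for QKO minus Rb against TKO minus WT. WT villi 3 also lowered the first count by over 1.5 times, to 1110. Rb villi 1 (1219) and TKO villi 1 (1230) did so against Rb villi; TKO villi 2 (280), WT villi 3 (288), TKO crypts 3 (351), WT crypts 2 (385) and TKO villi 1 (414) did so for the villus-minus-crypt difference; and WT crypts 2 (2864) did so against WT crypts. With the replicate number as a fixed replicate block, the 5 counts were 1997, 2189, 764, 4781 and 3087, and as a random replicate block 1791, 2005, 858, 4483 and 2812; the numbers do not pair TKO with WT villi. Centring on the median of the tested genes, chosen after seeing the data, moved the share of calls that were higher in TKO than WT villi to 38.0% against 63.5%, because it shifted the median difference to -0.128; 147 of the 245 cell cycle genes were still higher. The same centring moved that share to 28.5% against 39.2% (Rb villi), 47.0% against 78.5% (villus minus crypt; 56.7% by quantile normalization and 65.9% with array weights), 52.4% against 41.7% (WT crypts; 51.3% by quantile normalization) and 47.1% against 57.7% (QKO minus Rb; 43.8% when centred on all probe sets). The female TKO array alone was likewise chosen after seeing the data. With 2 E2F words in place of 4, their shares were 4.13% of higher genes, 1.14% of lower genes, 13.5% of higher and 12.5% of unchanged cell cycle genes and 1.29% of all genes. The E2f3 difference turned to -0.03 with sex as a covariate, -0.12 without TKO villi 3 (-0.12 to 0.31 over the 6 arrays left out in turn) and -0.18 with the female TKO array alone, none called; that of E2f2 passed the threshold without WT villi 1 (0.63) and that of Rb1 in a fit of only the groups compared (-0.43). Of 149 named genes that changed, 91 stayed past the threshold in every setting and 58 did not in at least 1, most often with the female TKO array alone (52), without TKO villi 2 (27), with sex as a covariate (26) and without WT villi 3 (23). Causes of these shifts were not tested.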

Other observations

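Cholesterol synthesis genes were higher in part in TKO villi: 6 of 19 rose and none fell (median 0.51), among them Idi1 (1.23 ± 0.27), Mvd (1.26 ± 0.29), Pmvk (0.92 ± 0.23) and the squalene epoxidase gene Sqle (1.32 ± 0.33). None of the 19 passed with sex as a covariate. Tfrc, the transferrin receptor, read 11.31, 11.85 and 11.98 in TKO villi and 10.71, 10.23 and 9.95 in WT villi (1.42 ± 0.24), and Fth1, ferritin heavy chain, fell by 0.37 on the log2 scale. Fth1 lost its call by quantile normalization and without TKO villi 2 or WT villi 2. Asns, asparagine synthetase, rose by 1.06 ± 0.19 and Ddit3, a stress response factor, fell by 0.93 on the log2 scale. With the mean of its probe sets the Ddit3 difference was -0.41 ± 0.16 and did not pass the test. Among 15 circadian genes 1 (6.67%) rose and 1 (6.67%) fell, beside 6.21% and 3.57% of all genes. Nfil3 rose by 1.2 ± 0.29 and Dbp fell (-2.05 ± 0.64). For Dbp TKO villi 3 read 7.64, beside 9.95 and 10.33 on the other TKO arrays and 10.91 to 11.61 in WT villi. Dbp lost its call in 5 of the 6 fits with 1 array left out and with sex as a covariate (-1.43 ± 0.70).

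MHC class II genes varied between the arrays of each genotype, with list means of 8.39, 10.62 and 10.66 in TKO villi and 9.66, 8.06 and 8.79 in WT villi; the list held 7 genes and none changed. H2-Aa read 10.11, 13.37 and 13.23 in TKO villi and 11.99, 9.32 and 10.70 in WT villi. Cubn, which encodes the vitamin B12 receptor cubilin, read 11.74, 11.47 and 7.25 in TKO villi and 12.84, 12.84 and 12.86 in WT villi (adjusted p = 0.117); all 3 TKO arrays were below all 3 WT arrays, and TKO villi 3 was far the lowest.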
